A study of Mus musculus with 16 samples.

Results

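The snoRNA host genes are transcribed as spliced RNAs whose introns carry small nucleolar RNAs (snoRNAs), the guides for chemical modification of ribosomal and spliceosomal RNA. Most hosts among the 9 described here keep no long open reading frame once the introns are removed. The exons of several such hosts are nevertheless exported and engaged by ribosomes, which meet a stop codon early. Several of these RNAs, with Gas5 (growth arrest specific) as the classical case, are known substrates of nonsense-mediated RNA decay (NMD). NMD degrades RNAs on which translation stops upstream of an exon junction, and UPF3B is one of its factors, a bridge between the exon junction complex and UPF2.

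The genes were chosen by name, as hosts of snoRNAs, with earlier results of these data known, and no threshold on a measured value was used. They are Gas5, Snhg1, Snhg3, Snhg6, Snhg8, Snhg11, Snhg12, Snhg14 and Snhg17. These make up 9 of the 55266 genes in the count matrices and hold 98 of the 142435 transcripts, between 3 for Snhg8 and 25 for Gas5. All values of a gene are sums over its transcripts, given as CPM, the count per 1000000 counts of the library.

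RNA came from frontal cortex (FC) and cerebellum (Cere) of adult mice that were either Upf3b-KO, described in the study as null for the gene, or Ctrl, their littermates. The labels name no treatment. Each of the 4 groups (FC_Ctrl, FC_KO, Cere_Ctrl and Cere_KO) held 4 libraries. The study described 4 mice of each genotype, while the labels tie no library to a mouse. Of the 16 libraries, 15 held 27660078 to 35238677 counts. Cere_KO replicate 1 held 64981 counts, so that 3 counts were worth 46.2 CPM, and it was left out of the values below except where it is named as kept or described by itself. Upf3b itself lay at 14.2 to 15.7 CPM in FC_Ctrl and at 0.229 to 0.857 CPM in FC_KO, and at 20.9 to 23.6 CPM in Cere_Ctrl against 0.617 to 0.965 CPM in Cere_KO.

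The libraries of a group differed little at the gene level. Among genes with at least 100 CPM, the median coefficient of variation within a group was 1.52% to 1.89%. Pairs of libraries differed by a mean chi-square of 2.74 to 3.89 per gene and of 16.0 to 18.6 per transcript, where counting error alone gives about 1. The p-values below measure only this spread, which may be technical. With it, 53.3% of all genes tested differed between genotypes in frontal cortex and 64.4% in cerebellum at an adjusted p under 0.05, so the size of a change is given beside every call.

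Markers of other cell types moved with genotype, and their part in the results below was not tested. All 9 choroid plexus markers were higher in Upf3b-KO in both regions, their summed level going from 24.8 to 26.0 CPM in FC_Ctrl to 2245 to 2298 CPM in FC_KO and from 31.8 to 36.1 CPM in Cere_Ctrl to 1425 to 1444 CPM in Cere_KO. All 8 striatal neuron markers were higher in FC_KO (161.6 to 174.2 CPM in Ctrl, 781.6 to 795.4 CPM in KO). In cerebellum, 5 of these 8 were higher and 1 was lower, with a summed level of 369 to 380 CPM in Ctrl and 336 to 346 CPM in KO. All 10 male germ cell genes were higher in FC_KO (28.9 to 33.1 CPM in Ctrl, 241.5 to 252.2 CPM in KO). In cerebellum, all 6 granule cell markers were lower (3901 to 3923 CPM in Ctrl, 2029 to 2043 CPM in KO), as were all 5 Purkinje cell markers (10792 to 10933 CPM in Ctrl, 4526 to 4538 CPM in KO), whereas all 6 oligodendrocyte markers were higher (6208 to 6328 CPM in Ctrl, 14390 to 14493 CPM in KO). The oligodendrocyte markers were also all higher in FC_KO (7556 to 7641 CPM in Ctrl, 10222 to 10296 CPM in KO). Of 6 astrocyte markers, 5 were lower and 1 was higher in each region, with a summed level of 2949 to 2983 CPM in FC_Ctrl, 2380 to 2407 CPM in FC_KO, 4725 to 4758 CPM in Cere_Ctrl and 3216 to 3243 CPM in Cere_KO. Of these markers, Otx2 of the choroid plexus list stayed at or under 3 counts in every FC_Ctrl library. So did Drd2 of the striatal neuron list and Tnp1 of the male germ cell list in every Cere_Ctrl library. None of these lists had a marker at 0 in every library of a group it is compared in. All 5 red cell genes were lower in frontal cortex (489.1 to 503.9 CPM in Ctrl, 422.2 to 433.0 CPM in KO) and higher in cerebellum (1255 to 1325 CPM in Ctrl, 2402 to 2451 CPM in KO). Of the male germ cell genes, 8 were tested in cerebellum, where 7 rose and 1 fell and the summed level was 28.5 to 30.9 CPM in Ctrl and 24.7 to 25.7 CPM in KO. In bulk tissue, fewer cells of a type and less RNA per cell cannot be told apart.

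The first bases of these RNAs are shown because many genes of the translation machinery, snoRNA hosts included, begin with a C followed by a run of C and T, a 5′ terminal oligopyrimidine tract that couples translation to growth signals. RefSeq gave 10 start sites for 8 of the 9 genes. Of these 10 sites, 2 had a C followed by at least 4 C or T at the annotated first base and 4 had one that began within 5 bases of it, against 2.51% and 18.3% of all 32851 RefSeq start sites. The windows hold 5 bases before the start and 20 from it, 5′ to 3′ on the strand of the gene, and capitals mark the tract. Gas5 has a further RefSeq start site upstream, at chr1:160862171, without a tract. Their GRCm39 positions were found by an exact match of the RefSeq window.
Gas5, chr1:160862731-160862755, plus strand: tcagCCTTTCggagctgtgcggcat
Snhg8, chr3:123301966-123301990, minus strand: gaagtCTCTTTggctgcgatccgcc
Snhg12, chr4:132035984-132036008, plus strand: agtCCTTTCTCgcttcatccgcggt
Snhg3, chr4:132080978-132081002, minus strand: cgcctgaCTTCCgggcgttacttaa
Snhg1, chr19:8700846-8700870, plus strand: tcggcctcatttttccttgttcggg
Gas5, Snhg8 and Snhg12 are among the genes that rose in Upf3b-KO (below), while Snhg3, with a tract, and Snhg1, without one by this definition, did not pass the test in either region. Snhg11, Snhg14 and Snhg17 had start sites without a tract, of which Snhg11 rose in cerebellum. Tract and call thus did not go together throughout. Snhg6, which rose in both regions, is the gene without a start site here, so tract and call could not be compared for all 9 genes.

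The reading frames show what a ribosome can meet on these RNAs. In Snhg12-206, the most abundant isoform of Snhg12 over the libraries of each region though not in FC_Ctrl alone (2.14 CPM, against 2.31 CPM for Snhg12-202), the first AUG stands at base 23 and opens a frame of 5 codons, followed by 4 exon junctions at least 50 nt downstream of the stop. In Snhg1-211, the most abundant Snhg1 isoform, the first AUG stands at base 146 and opens a frame of 6 codons, followed by 9 such junctions. Both frames are given in full, with the start and stop codons in capitals.
Snhg12-206: ATGacgcagactcagTAG
Snhg1-211: ATGgatcaacacgcggctTAG
The 2 RNAs thus both carry a short first frame with junctions behind it, although Snhg12 rose in both regions and Snhg1 passed in neither. Of 22 transcripts named by rule, 20 had at least 1 junction 50 nt or more after the stop of their first AUG frame, and 17 had one after the stop of their longest AUG frame. The same held for 79.8% and 25.2% of 2116 tested multi-exon transcripts of long non-coding RNA genes. For the longest frame, Gas5-210 had 3 such junctions, Gas5-224 had 4, Snhg6-203 had 1, Snhg8-201 had 2 and Snhg12-206 had 3. Snhg3-204 and Snhg17-209, the main isoforms of genes that did not pass in either region, had none. Junction counts and calls did not go together throughout, since Snhg11-206, which rose in both regions, had none either, and Snhg1-211 had 6.

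In frontal cortex, 4 of the 9 host genes rose in Upf3b-KO, 1 fell and 4 did not pass the test. Gas5, Snhg6, Snhg8 and Snhg12 rose by 1.65- to 1.99-fold, and Snhg14 fell to 0.897 of its Ctrl level in the fit, which scales libraries by TMM. Of all genes tested, 28% rose and 25.3% fell. The median log2 fold change was 0.35 over the 9 genes and 0.0037 over all genes. With a further limit of 1.5-fold, a rule added after the data were seen, the same 4 genes rose, against 13.2% of all genes tested. None of the 9 reached the study's gene rule of an adjusted p under 0.01 with a change over 2-fold, which 10.2% of all genes did. The rule is applied here to edgeR values, while the study called genes with DESeq2 and transcripts with EBSeq.

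**Figure D1:**
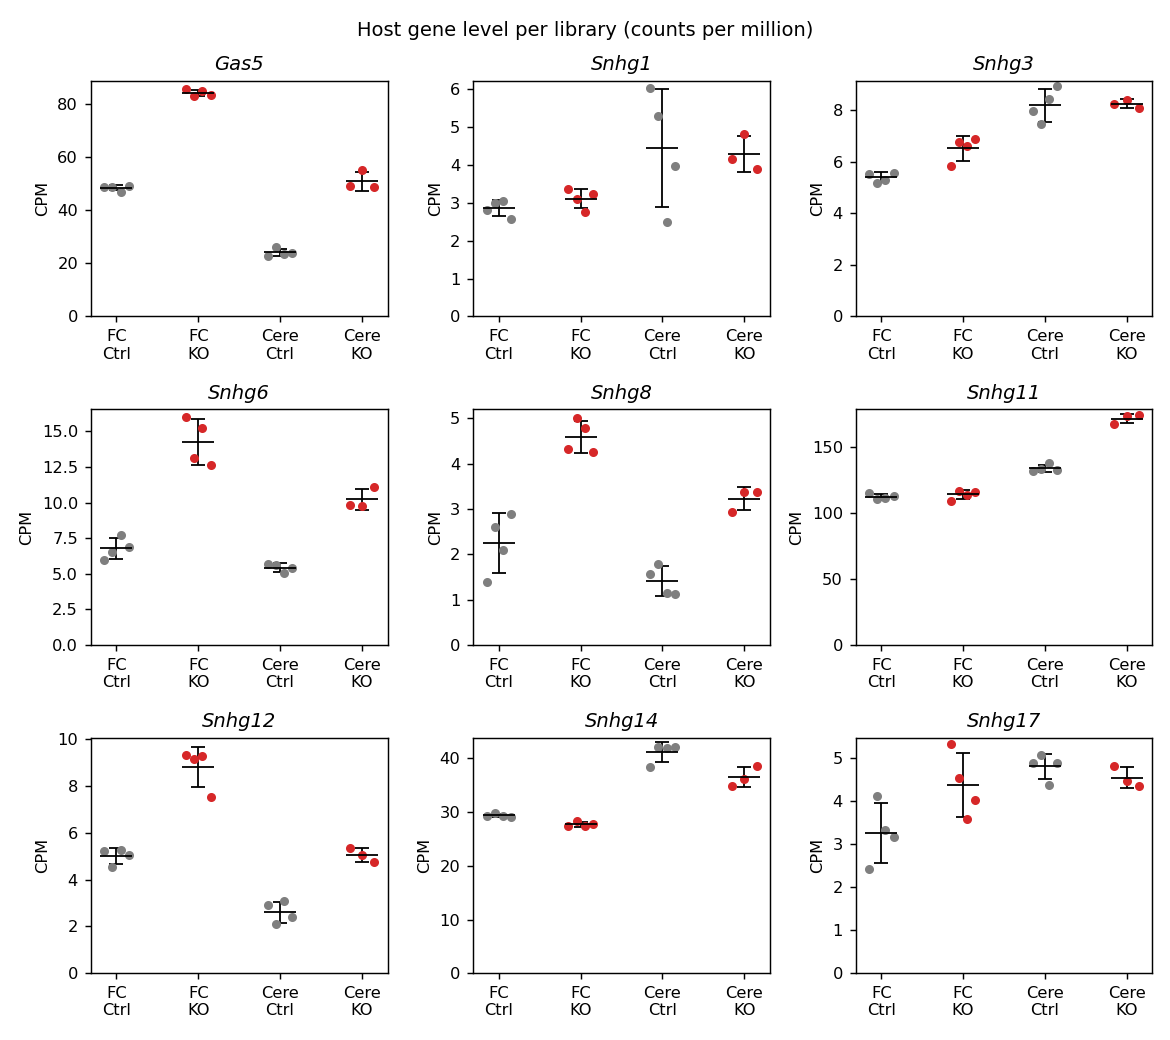
Level of each of the 9 host genes in CPM (vertical axes, each from 0) in every library of FC_Ctrl, FC_KO, Cere_Ctrl (4 libraries each) and Cere_KO (3 libraries), with the mean (long dash) and SD (bar). Every Upf3b-KO library lies above every Ctrl library of its region for Gas5, Snhg6, Snhg8 and Snhg12, whereas the groups overlap in both regions for Snhg1 and Snhg17.

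Gas5 (chr1:160861992-160866118, plus strand, with 10 annotated snoRNA genes in its introns) lay at 48.8, 48.7, 47.0 and 49.1 CPM in the FC_Ctrl libraries and 85.5, 83.1, 84.8 and 83.4 CPM in FC_KO. Every KO library stood far above every Ctrl library. The fitted log2 fold change was 0.72 ± 0.03 (SE; edgeR adjusted p = 5.07e-15).

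Snhg6 (chr1:10012176-10014504, minus strand) lay at 5.94, 6.55, 7.74 and 6.89 CPM in FC_Ctrl and at 16.0, 13.1, 15.3 and 12.6 CPM in FC_KO. The lowest KO library stood well above the highest Ctrl library. The log2 fold change was 0.996 ± 0.096 (SE; edgeR adjusted p = 1.23e-08), the largest of the 9 in this region.

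Snhg8 (chr3:123301192-123302578, minus strand) was among the weakest, at 1.38, 2.61, 2.09 and 2.89 CPM in FC_Ctrl and 4.32, 4.999, 4.78 and 4.26 CPM in FC_KO. Its Ctrl libraries spread widely but all lay below the KO libraries, with a log2 fold change of 0.96 ± 0.17 (SE; edgeR adjusted p = 6.62e-05). Snhg12 (chr4:132035905-132038407, plus strand) lay at 5.22, 4.52, 5.25 and 5.06 CPM in FC_Ctrl and at 9.29, 9.12, 9.26 and 7.52 CPM in FC_KO. Again no library of one genotype reached the other, and the log2 fold change was 0.74 ± 0.10 (SE; edgeR adjusted p = 2.79e-06).

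Snhg14 (chr7:58957672-59625507, minus strand) went the other way. It is the long host of the brain snoRNA clusters at the imprinted Prader-Willi and Angelman locus, runs antisense to the ubiquitin ligase gene Ube3a, and contains 208 annotated snoRNA genes. Its level was 29.2, 29.7, 29.2 and 29.1 CPM in FC_Ctrl and 27.4, 28.3, 27.3 and 27.8 CPM in FC_KO. All KO libraries were below all Ctrl libraries in CPM, with group means of 27.7 and 29.3 CPM, and the TMM-scaled fit gave a small step of -0.16 ± 0.04 on the log2 scale (SE; edgeR adjusted p = 0.00347). Ube3a, which shares 1803 exonic bases with it on the other strand, had a log2 fold change of -0.15 ± 0.02. As it was not stated whether counting used the strand, reads of the overlap cannot be assigned with certainty.

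The other 4 genes did not pass in frontal cortex. Snhg11 (chr2:158217558-158228071, plus strand), the most abundant member by CPM and known as a neuronal host RNA, lay at 115.3, 110.4, 111.2 and 113.2 CPM in FC_Ctrl and at 109.5, 116.7, 114.2 and 116.4 CPM in FC_KO. Those libraries overlapped, and the log2 fold change was -0.05 ± 0.03 (SE; edgeR adjusted p = 0.0807) although the mean CPM was slightly higher in KO, since the fit scales libraries by TMM. Snhg3 (chr4:132075325-132080997, minus strand) had all KO libraries (5.84 to 6.90 CPM) above all Ctrl libraries (5.20 to 5.59 CPM), yet its log2 fold change of 0.19 ± 0.10 had an edgeR adjusted p of 0.109. Rcc1, a guanine nucleotide exchange factor gene that shares 135 exonic bases with Snhg3 on the same strand, had a log2 fold change of 0.58 ± 0.08 in the same libraries. Snhg17 (chr2:158195620-158203672, minus strand) lay at 2.43 to 4.12 CPM in FC_Ctrl and at 3.59 to 5.33 CPM in FC_KO, with a log2 fold change of 0.35 ± 0.16 (SE; edgeR adjusted p = 0.0669). This adjusted p passed without FC_Ctrl replicate 2 (0.0173) and without FC_KO replicate 3 (0.0322). Snhg1 (chr19:8700319-8703812, plus strand) lay at 2.58 to 3.04 CPM and 2.77 to 3.36 CPM, with a log2 fold change of 0.05 ± 0.14 (SE; edgeR adjusted p = 0.789). It overlaps the amino acid transporter subunit gene Slc3a2 on the other strand by 395 exonic bases, and Slc3a2 had a mean of 124.0 CPM in FC_Ctrl.

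In cerebellum, 5 of the 9 genes rose, 1 fell and 3 did not pass, while 33.1% of all genes tested rose and 31.3% fell. Gas5, Snhg6, Snhg8 and Snhg12 rose as in frontal cortex, by 1.82- to 2.20-fold, and Snhg11 rose by 1.24-fold. The median log2 fold change was 0.31 over the 9 genes and 0.01 over all genes. With the added 1.5-fold limit, 4 of the 9 rose, against 16.4% of all genes. Gas5 and Snhg8 met the study's rule, as did 13.2% of all genes in either direction.

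Gas5 lay at 22.8, 26.1, 23.5 and 23.9 CPM in Cere_Ctrl and at 49.1, 55.0 and 48.6 CPM in Cere_KO. The Upf3b-KO cerebellum thus held Gas5 at about the level of the Ctrl frontal cortex, and the log2 fold change was 1.03 ± 0.05 (SE; edgeR adjusted p = 3.88e-12). Snhg8 lay at 1.56, 1.79, 1.16 and 1.12 CPM in Cere_Ctrl and at 2.93, 3.38 and 3.38 CPM in Cere_KO. The groups did not overlap, and its log2 fold change of 1.14 ± 0.19 (SE; edgeR adjusted p = 3.31e-05) was the largest of the 9 in this region.

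Snhg12 lay at 2.89, 2.09, 3.07 and 2.39 CPM in Cere_Ctrl and at 5.34, 5.05 and 4.73 CPM in Cere_KO (log2 fold change 0.90 ± 0.15 SE; edgeR adjusted p = 2.74e-05). Snhg6 lay at 5.70, 5.59, 5.02 and 5.42 CPM in Cere_Ctrl and at 9.84, 9.73 and 11.1 CPM in Cere_KO (log2 fold change 0.86 ± 0.10 SE; edgeR adjusted p = 3.50e-07). For both genes each KO library exceeded each Ctrl library. Mcmdc2, which overlaps Snhg6 on the other strand by 135 exonic bases, was weak, at a mean of 0.623 CPM in Cere_Ctrl and 1.09 CPM in Cere_KO (log2 fold change 0.75 ± 0.35 SE; edgeR adjusted p = 0.0673). In frontal cortex it rose from 1.18 to 2.05 CPM, with all KO libraries higher (log2 fold change 0.72 ± 0.22 SE; edgeR adjusted p = 0.00850), and its part in the Snhg6 values was not tested.

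Snhg11 lay at 132.2, 133.3, 137.8 and 132.9 CPM in Cere_Ctrl and at 167.7, 173.6 and 174.2 CPM in Cere_KO. The increase was modest but much larger than the spread, with a log2 fold change of 0.31 ± 0.02 (SE; edgeR adjusted p = 1.28e-09). Snhg14 lay at 38.2, 42.1, 41.9 and 41.9 CPM in Cere_Ctrl and at 34.8, 36.0 and 38.5 CPM in Cere_KO. The highest KO library slightly exceeded the lowest Ctrl library, and the log2 fold change was -0.22 ± 0.05 (SE; edgeR adjusted p = 4.97e-04). Snhg1, Snhg3 and Snhg17 had overlapping groups and log2 fold changes of -0.11 ± 0.21, -0.04 ± 0.10 and -0.13 ± 0.12 (SE).

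**Figure D2:**
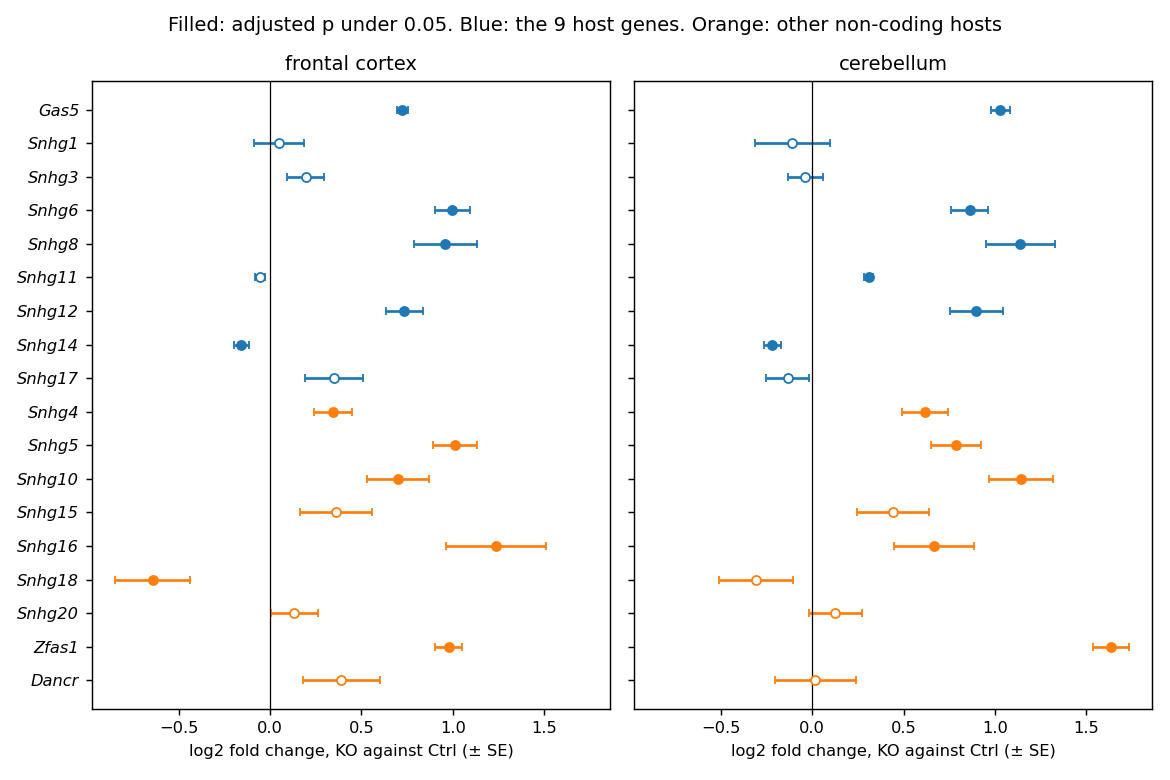
Fitted log2 fold change of Upf3b-KO against Ctrl (horizontal axis, ± SE) in frontal cortex (left) and cerebellum (right) for the 9 host genes (blue) and 9 other non-coding snoRNA hosts (orange), filled where the adjusted p is under 0.05. Gas5, Snhg6, Snhg8 and Snhg12 lie between 0.72 and 1.14 in both regions, and Zfas1 reaches 1.63 in cerebellum.

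Whether the response differed between the regions was tested directly as the region by genotype interaction. It passed for 2 of the 9 genes, against 48% of all genes tested, and for none of the 9 under the study's rule, which 9.4% of all genes met. The increase of Gas5 was larger in cerebellum by 0.30 ± 0.06 on the log2 scale (SE; edgeR adjusted p = 1.83e-04). For Snhg11, which rose only in cerebellum, the log2 fold change there was higher by 0.35 ± 0.04 (SE; edgeR adjusted p = 6.51e-09). For Snhg17 the difference was -0.49 ± 0.21 (SE; edgeR adjusted p = 0.0528), and the adjusted p was 0.0133 without FC_Ctrl replicate 2, 0.0234 and 0.0475 without FC_KO replicate 3 or 4, 0.0446 without Cere_Ctrl replicate 3, 0.0401 with a minimum count of 30, 0.0466 with Cere_KO replicate 1 kept and 0.0303 in DESeq2. For Snhg6, Snhg8 and Snhg12 it was -0.15 ± 0.14, 0.17 ± 0.27 and 0.15 ± 0.18 (SE; edgeR adjusted p = 0.436, 0.649 and 0.514).

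The regions themselves differed in Ctrl for all 9 genes, as they did for 76.5% of all genes tested. Under the study's rule, Gas5 alone of the 9 differed, against 25.1% of all genes. The genes that rose in both regions in Upf3b-KO were those lower in Cere_Ctrl than in FC_Ctrl, with log2 differences of -1.06 ± 0.04 for Gas5, -0.997 ± 0.136 for Snhg12, -0.71 ± 0.23 for Snhg8 and -0.38 ± 0.11 for Snhg6. The other 5 were higher in Cere_Ctrl, by 0.59 ± 0.19 for Snhg1, 0.54 ± 0.10 for Snhg3, 0.50 ± 0.14 for Snhg17, 0.43 ± 0.04 for Snhg14 and 0.20 ± 0.02 for Snhg11. The difference for Snhg1 rested on Cere_Ctrl replicate 1 (6.05 CPM, against 2.51 to 5.29 CPM in the others), without which it was 0.41 with an edgeR adjusted p of 0.0598. These comparisons share the Ctrl libraries with those of genotype.

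To compare levels between genes, counts were divided by the annotated transcript lengths and scaled to sum to 1000000 per library (TPM). In FC_Ctrl, Gas5 led with a mean of 146.4 TPM, followed by Snhg11 (61.2), Snhg3 (29.8), Snhg6 (25.2), Snhg14 (20.5), Snhg12 (16.5), Snhg1 (5.47), Snhg8 (5.34) and Snhg17 (2.42). The ranges over libraries overlapped between Snhg3 and Snhg6, between Snhg6 and Snhg14 and between Snhg1 and Snhg8. In Cere_Ctrl, Snhg11 (77.4 TPM) and Gas5 (74.8 TPM) overlapped at the top, as did Snhg1 (9.14) with Snhg12 (8.69) and Snhg17 (3.94) with Snhg8 (3.63). In Upf3b-KO, Gas5 stood first in both regions, at 255.1 to 265.5 TPM in FC_KO and 150.1 to 166.5 TPM in Cere_KO.

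At the level of single transcripts, 34 of the 98 had counts enough for a test in frontal cortex, where 7 rose and 1 fell, against 8.67% and 7.68% of all transcripts tested. In cerebellum 40 were tested, of which 7 rose and none fell, against 12.3% and 10.3% of all. At an unadjusted p under 0.05 by edgeR, 9 were higher and 3 lower in frontal cortex, and 10 higher and 2 lower in cerebellum. The share of all transcripts at this limit was not computed. DESeq2 called 9 higher and 2 lower in frontal cortex and 10 higher and 1 lower in cerebellum, and it called 24.3% and 32% of all transcripts. Under the study's gene rule, applied to edgeR values, 3 transcripts passed in each region, against 3.22% and 4.76% of all transcripts tested. Assignment of reads among isoforms is an estimate of RSEM, so single transcripts are less certain than their sums.

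Gas5-210 (759 nt, 11 exons) lay at 32.8, 30.2, 28.4 and 32.2 CPM in FC_Ctrl and at 61.5, 55.8, 55.9 and 57.5 CPM in FC_KO. Gas5-224 (767 nt, 12 exons) lay at 8.80, 12.8, 13.3 and 10.7 CPM in FC_Ctrl and at 16.7, 17.8, 21.3 and 17.1 CPM in FC_KO. Both spliced isoforms rose, by 0.84 ± 0.06 and 0.61 ± 0.15 on the log2 scale (SE; edgeR adjusted p = 3.37e-05 and 0.0237). In cerebellum they rose by 1.16 ± 0.09 and 1.20 ± 0.08 (SE; edgeR adjusted p = 1.35e-04 and 4.85e-05). The 20 Gas5 transcripts typed as retained intron summed to 5.30 ± 1.04 CPM in FC_Ctrl and 6.63 ± 0.98 CPM in FC_KO (SD, n = 4 each), and to 3.71 ± 0.73 CPM in Cere_Ctrl (n = 4) and 4.95 ± 1.81 CPM in Cere_KO (n = 3). Their share of Gas5 was 10.9% ± 2.0 in FC_Ctrl and 7.89% ± 1.26 in FC_KO, and 15.3% ± 2.5 in Cere_Ctrl and 9.62% ± 3.03 in Cere_KO. An exact two-sided permutation test gave p = 0.0571 and 0.114 (adjusted p = 0.114 for both, 2 tests). The smallest p these numbers of libraries allow are 0.0286 and 0.0571, and 0.0571 after adjustment, so the test could not have passed 0.05. Gas5-221, the retained-intron form with the smallest p, had a log2 fold change of 1.10 ± 0.41 in frontal cortex (edgeR adjusted p = 0.123), and it passed in DESeq2 (1.11, adjusted p = 0.0299).

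Of the weaker hosts, Snhg6, Snhg8 and Snhg12 each had 1 isoform that rose in both regions. Snhg6-203 (642 nt, 4 exons) rose by 1.09 ± 0.13 on the log2 scale in frontal cortex and 0.94 ± 0.12 in cerebellum (SE; edgeR adjusted p = 8.14e-04 and 0.00159). Snhg8-201 (982 nt, 3 exons) rose by 1.09 ± 0.26 and 1.16 ± 0.25 (adjusted p = 0.0229 and 0.0149), and Snhg12-206 (724 nt, 5 exons) by 1.15 ± 0.22 and 1.37 ± 0.33 (adjusted p = 0.00939 and 0.0232). The isoforms Snhg6-204 and Snhg12-202, the latter the more abundant Snhg12 form in FC_Ctrl, had log2 fold changes of 0.81 ± 0.30 and 0.38 ± 0.41 in frontal cortex and 0.84 ± 0.27 and 0.48 ± 0.31 in cerebellum, which did not pass in edgeR. For Snhg6-204 all KO libraries were higher in both regions, and it passed in DESeq2 in both (adjusted p = 0.0308 and 0.00749). Calls of Snhg8-201 and Snhg12-206 were lost when single libraries were left out. Snhg8-201 had an edgeR adjusted p of up to 0.0660 without FC_Ctrl replicate 3, FC_KO replicate 1, 2 or 3 in turn and of up to 0.0610 without Cere_KO replicate 3 or 4. With no filter on low counts, Snhg8-201 had one of 0.0591 in frontal cortex and 0.0637 in cerebellum, and Snhg12-206 one of 0.0574 in cerebellum. With Cere_KO replicate 1 kept, they had 0.0784 and 0.0723 in cerebellum. Snhg12-206 had one of up to 0.0800 without Cere_Ctrl replicate 4 or Cere_KO replicate 2, 3 or 4 in turn. The call of Gas5-224 in frontal cortex was lost without FC_Ctrl replicate 4, FC_KO replicate 2 or FC_KO replicate 3, with an edgeR adjusted p of up to 0.0689.

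Snhg11 was the one host with an isoform whose share of the gene passed the test. Shares did not overlap between genotypes for some other isoforms that did not pass it, such as Snhg17-204 in frontal cortex (12.1% to 21.0% in Ctrl, 5.06% to 7.64% in KO), Snhg1-211 in cerebellum (69.1% to 79.1% in Ctrl, 58.0% to 61.8% in KO) and Snhg1-207 in cerebellum (0% to 5.5% in Ctrl, 12.1% to 18.1% in KO). Its main transcripts share exons 2 to 4 and the start of exon 5. Snhg11-205 (5864 nt, 5 exons) then runs on through a last exon of 5207 bases, whereas Snhg11-206 (1646 nt, 7 exons) is spliced further within that stretch, from exon 5 (102 bases) to exon 6 (83 bases) and on to exon 7 (879 bases). The junctions that Snhg11-206 alone contains are given with 15 bases on each side, the downstream exon in capitals.
Snhg11-206, exon 5 to exon 6, chr2:158222960 to chr2:158225001: cacctttttactttgTGTCAACCGGACATG
Snhg11-206, exon 6 to exon 7, chr2:158225083 to chr2:158227193: gtgatggttcctcagAAAATGAAGTCCCAG

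**Figure D3:**
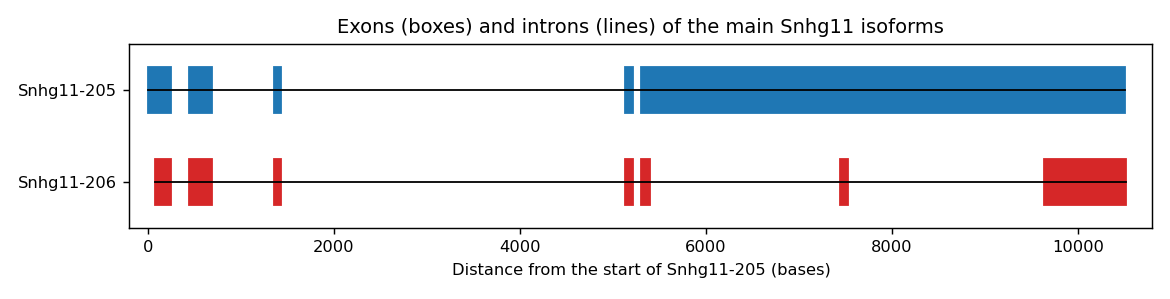
Exons (boxes) and introns (lines) of Snhg11-205 (blue) and Snhg11-206 (red) to scale, as distance in bases from the start of Snhg11-205. The last exon of Snhg11-205 covers exons 5 and 6 of Snhg11-206, the introns between its last 3 exons and all of its exon 7 but the end.

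In frontal cortex, the long form Snhg11-205 fell from 99.2, 94.2, 92.9 and 96.0 CPM in FC_Ctrl to 84.5, 85.2, 85.0 and 86.4 CPM in FC_KO, a log2 fold change of -0.23 ± 0.02 (SE; edgeR adjusted p = 5.09e-04). The spliced form Snhg11-206 rose from 7.27, 9.89, 7.99 and 9.9996 CPM to 18.02, 23.8, 20.7 and 22.6 CPM, a log2 fold change of 1.21 ± 0.14 (SE; edgeR adjusted p = 5.67e-04). The whole gene, where these cancel, showed no call. The share of Snhg11-206 in Snhg11 was 6.31%, 8.95%, 7.18% and 8.83% in FC_Ctrl and 16.5%, 20.4%, 18.1% and 19.4% in FC_KO, with no overlap. It was the only transcript of 32 tested whose share passed the test in frontal cortex (log2 change against the gene 1.25; edgeR diffSpliceDGE adjusted p = 0.00142), against 0.86% of all transcripts tested.

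In cerebellum both forms rose, the long form from 110.4 to 115.9 CPM in Cere_Ctrl to 127.7 to 134.8 CPM in Cere_KO and the spliced form from 12.4, 11.9, 12.4 and 12.6 CPM to 30.2, 28.9 and 32.8 CPM. Their log2 fold changes were 0.22 ± 0.03 and 1.31 ± 0.06 (SE; edgeR adjusted p = 0.00147 and 1.24e-05). The call of the long form was lost with Cere_KO replicate 1 kept (adjusted p = 0.116). The share of Snhg11-206 went from 9.42%, 8.94%, 9.002% and 9.48% to 17.99%, 16.6% and 18.8%. It again was the one transcript of 38 tested whose share passed (log2 change 0.95; edgeR diffSpliceDGE adjusted p = 0.0155), against 1.25% of all transcripts. That call was lost without Cere_KO replicate 2, 3 or 4, with adjusted p of 0.0631 to 0.160 and a log2 change of 0.91 to 1.001. Measured per length, the gene as a whole went from 60.8 to 61.7 TPM in FC_Ctrl to 69.0 to 79.3 TPM in FC_KO. Snhg11-206 is the shorter of the 2 forms, and a count in it weighs more on this scale.

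**Figure D4:**
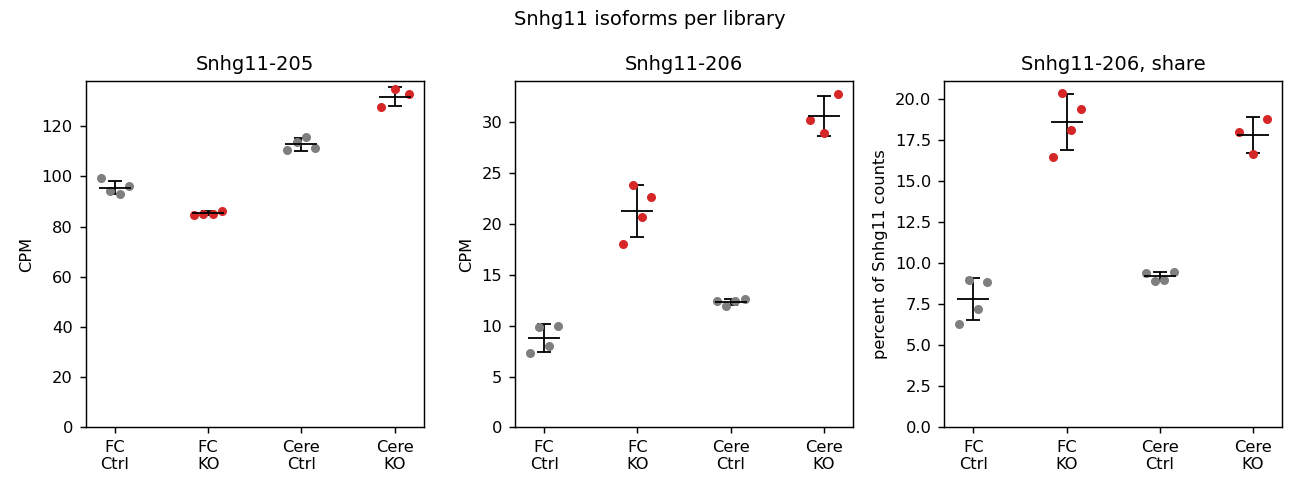
Level in CPM of Snhg11-205 (left) and Snhg11-206 (middle) and the share of Snhg11-206 in percent of Snhg11 counts (right), per library (points), with mean (long dash) and SD (bar). The share stays at 6.31% to 9.48% in the Ctrl libraries and at 16.5% to 20.4% in the Upf3b-KO libraries.

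The leading transcripts of the remaining genes did not pass the test. Snhg14-211 (6861 nt, 12 exons) had log2 fold changes of -0.13 ± 0.05 and -0.22 ± 0.09, Snhg3-204 of 0.17 ± 0.12 and -0.02 ± 0.12, Snhg17-209 of 0.52 ± 0.24 and -0.25 ± 0.19, and Snhg1-211 of 0.0022 ± 0.2836 and -0.35 ± 0.29, in frontal cortex and cerebellum in turn. For Snhg17-209 in frontal cortex, all KO libraries were higher. Snhg14-211 passed in cerebellum in the fit of all groups (-0.22, edgeR adjusted p = 0.0347). Snhg14-214, a minor form at 0.253 CPM in FC_Ctrl and 0.673 CPM in FC_KO, rose by 1.35 ± 0.35 in frontal cortex (edgeR adjusted p = 0.0348), a call that was lost without any 1 of the libraries except FC_KO replicate 1. In cerebellum it had a log2 fold change of -0.10 ± 0.20. Snhg1-207, at 0.0531 CPM in Cere_Ctrl and 0.631 CPM in Cere_KO, had a log2 fold change of 3.57 ± 1.07 with an edgeR adjusted p of 0.0538. All its KO libraries were higher, and it passed in DESeq2 (3.70, adjusted p = 6.99e-05) and, in edgeR, without Cere_Ctrl replicate 3 (4.63, adjusted p = 0.0330). In frontal cortex, where it was too weak for a test, its mean was 0.326 CPM in FC_Ctrl and 0.154 CPM in FC_KO, with 2 KO libraries at 0. Snhg14-203, Snhg17-204, Snhg17-201, Snhg11-204, Snhg1-203 and Snhg6-205 did not pass in edgeR in a region where they were tested. In DESeq2, Snhg17-204 passed in frontal cortex (log2 fold change -1.12, adjusted p = 0.0329), as did Snhg11-204 (0.68, adjusted p = 0.0201) and Snhg14-203 (-0.63, adjusted p = 0.0464) in cerebellum.

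The snoRNAs themselves were not measured by these libraries. The annotation places 240 snoRNA genes inside the 9 hosts. Of these, 6 had any count in the 15 libraries, and the highest mean was 0.0229 CPM.

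Other non-coding hosts were examined from a list of 11, of which 9 had counts enough for a test. In frontal cortex 5 of these rose, 1 fell and 3 did not pass, and in cerebellum 5 rose and 4 did not pass, while 28% and 33.1% of all genes rose and 25.3% and 31.3% fell. Their median log2 fold changes were 0.39 and 0.62, and 4 and 5 of them rose by over 1.5-fold, against 13.2% and 16.4% of all genes. Zfas1, the host at the antisense side of a zinc finger gene, lay at 8.33 ± 0.62 CPM in FC_Ctrl, 17.3 ± 0.6 CPM in FC_KO, 4.12 ± 0.29 CPM in Cere_Ctrl (SD, n = 4 each) and 13.3 ± 0.8 CPM in Cere_KO (SD, n = 3). Its log2 fold changes were 0.98 ± 0.07 and 1.63 ± 0.10 (SE; edgeR adjusted p = 2.12e-10 and 2.95e-11). Snhg5 rose by 1.01 ± 0.12 and 0.79 ± 0.14, Snhg10 by 0.70 ± 0.17 and 1.14 ± 0.18, and Snhg16 by 1.23 ± 0.27 and 0.67 ± 0.22 on the log2 scale. Snhg4 rose by 0.34 ± 0.10 and 0.62 ± 0.12, and Snhg18 was the gene that fell in frontal cortex, by 0.64 ± 0.21 on the log2 scale.

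Protein-coding hosts carry snoRNAs in the introns of messenger RNAs for ribosomal proteins, translation factors and nucleolar proteins. All 23 listed were tested. In frontal cortex 2 rose, 15 fell and 6 did not pass, and in cerebellum 16 rose, 4 fell and 3 did not pass. The shares of all genes were 28% higher and 25.3% lower in frontal cortex and 33.1% higher and 31.3% lower in cerebellum. No coding host rose by over 1.5-fold in either region, and the largest increases were 0.16 and 0.29 on the log2 scale. Their medians were -0.09 and 0.15. Rpl3, a ribosomal protein gene, fell from 248.8 ± 5.5 to 161.3 ± 5.7 CPM in frontal cortex (SD, n = 4 each; log2 fold change -0.70 ± 0.02 SE) and by 0.35 ± 0.03 on the log2 scale in cerebellum. Ncl, for nucleolin, fell by 0.29 ± 0.02 and 0.38 ± 0.02, and Rpl4 and Eif4a2 fell in frontal cortex by 0.21 ± 0.02 and 0.18 ± 0.02. Hspa8 and Tpt1 rose in cerebellum by 0.25 ± 0.01 and 0.27 ± 0.02.

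**Figure D5:**
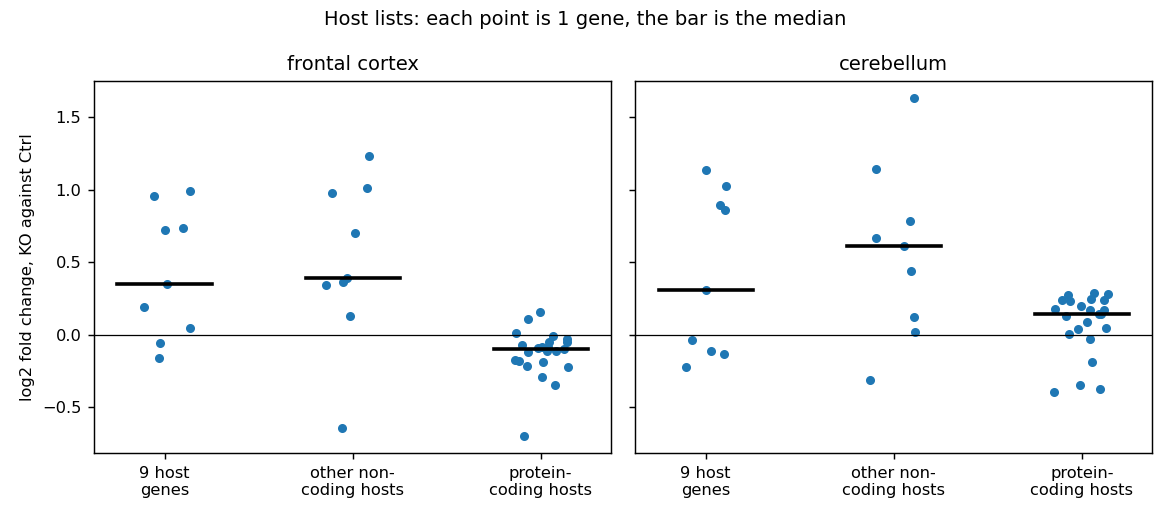
Fitted log2 fold change of Upf3b-KO against Ctrl (vertical axis) for the 9 host genes, the other non-coding hosts and the protein-coding hosts in frontal cortex (left) and cerebellum (right); each point is a gene and the bar is the median. The protein-coding hosts reach at most 0.16 and 0.29, while the non-coding lists reach 1.23 and 1.63.

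Across the 15 deep libraries, the 5 genes whose log2 (CPM + 1) followed Gas5 most closely, among 10330 others with a mean of at least 10 CPM, were Cers1 (Pearson r = 0.992), Slco1c1 (0.990), Actr1b (0.989), Ankrd42 (0.987) and Ctsc (0.986). These values describe libraries that fall into 4 groups and carry no test. Slco1c1, an organic anion transporter of brain barriers, had means of 57.8 CPM in FC_Ctrl, 105.5 CPM in FC_KO, 26.4 CPM in Cere_Ctrl and 56.2 CPM in Cere_KO, and Cers1, a ceramide synthase, had 88.1, 127.0, 56.1 and 94.2 CPM in the same order. Of the 8 other genes among the 9, only Snhg11 and Snhg14 had a mean high enough to enter this ranking.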

How the data were processed

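Libraries were made from ribosomal RNA-depleted total RNA (SMART-Seq v4 PLUS chemistry) and read from both ends. The authors aligned reads to GRCm39 with STAR 2.5.2b and quantified isoforms with RSEM. For each Ensembl transcript they deposited an expected count, neither scaled nor filtered. Reads shared by isoforms are divided by the model, and the use of strand was not stated. Of 142435 transcripts, 141102 matched GENCODE vM39, which is not the authors' release, and 1333 did not. Groups followed the sample titles.

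Counts were rounded and summed per gene. Analysis used R 4.3.3 with edgeR 4.0.16, limma 3.58.1 and DESeq2 1.42.0, and Python with pandas, numpy, scipy and matplotlib. The quasi-likelihood F test was run after filterByExpr (minimum count 10, total 15) and TMM scaling, with Benjamini-Hochberg adjustment over all features. A feature passed at an adjusted p under 0.05. Isoform shares were tested with diffSpliceDGE. The standard error was the absolute log2 fold change divided by the square root of F, and errors of CPM are SDs. On simulated frontal cortex counts for 18176 genes, 100 of 100 genes changed by a log2 fold of 1 were recovered. Recovery at levels as low as those of Snhg1, Snhg8 and Snhg17, or of weak transcripts, was not tested separately. For shares in frontal cortex (35824 transcripts), 43 of 84 transcripts changed by a log2 fold of 1 were recovered and 19 transcripts with no change of share were called, so absent share calls say little and a share call can be false. In cerebellum (37190 transcripts) these were 39 of 78 and 23. Levels of 0 and low counts carry counting error, with 3 counts equal to 0.0851 to 0.108 CPM in the 15 deep libraries. Those of single transcripts also carry error from the division of reads among isoforms. Gas5-221, for example, lay at 1.07, 1.79 and 0 CPM in the Cere_KO libraries.

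The genes and lists were chosen with earlier results of these data known. Named transcripts were the most abundant of each gene over the deep libraries of a region and up to 2 more with the smallest adjusted p. Named genes of other host lists were the 4 with the smallest adjusted p per region. Other genes that were named (Snhg18, and Snhg16 and Snhg4 in their second region) were chosen after their values were seen. Overlapping genes had a mean of at least 1 CPM. Deviations of libraries with the same replicate number correlated by -0.0585 to 0.105, so the numbers were not taken as pairs.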

Additional observations from a re-analysis of the deposited data

Results flagged for a closer look

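The log2 fold changes of Gas5 and Snhg11 differed between the regions in the test of the difference itself, by 0.30 ± 0.06 and 0.35 ± 0.04 (SE; edgeR adjusted p = 1.83e-04 and 6.51e-09). Both were higher in cerebellum, and Snhg11 rose only there, with -0.05 ± 0.03 in frontal cortex. Among 27 groups of 4 libraries (9 genes in 3 groups), 3 had a library far from the others, where chance gives about 1 in 20. The Gas5 level of FC_Ctrl replicate 3 (47.0 CPM, the next 48.7 CPM) lay apart by 0.844 of the range of its group. Snhg12 in FC_KO replicate 4 (7.52 CPM, the next 9.12 CPM) lay apart by 0.901 of the range, and Snhg14 in Cere_Ctrl replicate 1 (38.2 CPM, the next 41.9 CPM) by 0.962. Each of these values is on the side of the other genotype, except that of Gas5, which lies away from it.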

How the results depend on the processing

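The increases of Gas5, Snhg6, Snhg8 and Snhg12 passed under each of 14 alternatives per region other than the 2-fold limit, with log2 fold changes of 0.71 to 0.73, 0.94 to 1.06, 0.78 to 1.10 and 0.69 to 0.80 in frontal cortex and 0.97 to 1.07, 0.80 to 0.90, 1.05 to 1.27 and 0.80 to 0.98 in cerebellum. Of 120 recomputed counts, 104 stayed within 1.5 times the reported one. With an adjusted p under 0.01 and over 2-fold, 0 genes passed in frontal cortex, 2 in cerebellum, 0 in the interaction and 1 between regions, and 3 transcripts in each region; the fold limit itself removes genes here. Keeping Cere_KO replicate 1 left 4 cerebellar transcripts (10% of all transcripts tested, against 22.6%), and DESeq2 called 11 (32% of all). With the replicate number as a block, 5 transcripts passed in frontal cortex (9.96% of all, against 16.4%), 4 in cerebellum (11.6%, against 22.6%), and 0 cerebellar shares (0.837%, against 1.25%); it changed no gene count. The block ended the calls of Snhg12-206 (adjusted p = 0.0570 and 0.105) and Snhg8-201 (0.0696 and 0.123) in frontal cortex and cerebellum, of Snhg14-214 in frontal cortex (0.155) and of Snhg6-203 in cerebellum (0.0503). Leaving out 1 library in turn gave 5 to 7 transcripts in frontal cortex (12.3% to 13.1% of all) and 5 to 8 in cerebellum (16.3% to 20.9% of all). It gave 0 to 1 cerebellar shares (0.931% to 1.17% of all). The cause of these losses was not tested. Snhg11 in frontal cortex passed at -0.06 in DESeq2 (adjusted p = 0.0493) and with no filter on low counts (0.0486), and Snhg17 passed there in the fit of all groups (0.0468).

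Values that changed sign did not pass in any setting. Snhg1 in cerebellum was 0.12 with the replicate block and -0.31 to 0.072 with 1 library left out, and its interaction -0.36 to 0.0093. Snhg3 in cerebellum was -0.082 to 0.0053 and Snhg3-204 -0.077 to 0.028 with 1 library left out. Snhg1-211 in frontal cortex was -0.0019 with no filter on low counts, -0.061 with the replicate block, -0.0098 in the fit of all groups and -0.11 to 0.21 with 1 library left out. Snhg17-204 in cerebellum was -0.14 with the block and -0.23 to 0.59 with 1 library left out. Genes below about 5 CPM, such as Snhg1, Snhg8 and Snhg17, rest on few counts, which limits the size of change that could be seen.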

Other observations

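In the library left out for its depth, Cere_KO replicate 1, Gas5 had 3 counts (46.2 CPM, exact 95% Poisson interval 9.52 to 135 CPM), Snhg11 had 15 counts (234.5 CPM, 129.2 to 380.7 CPM), Snhg14 had 2 counts and Snhg6 had 1 count. Snhg1, Snhg3, Snhg8, Snhg12 and Snhg17 had 0 counts, for which the same interval reaches 56.8 CPM (3 counts are worth 46.2 CPM). These intervals cover counting error only and include the Cere_Ctrl means of Gas5 and Snhg11 as well as the means of the other Cere_KO libraries. Zfas1, outside the 9 genes, was the one of 9 other tested non-coding hosts whose response differed between the regions, by 0.65 ± 0.12 on the log2 scale (SE; edgeR adjusted p = 4.37e-05), against 48% of all genes tested, and it was larger in cerebellum, as for Gas5.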
